A study of Homo sapiens with 18 samples.

Results

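ATF4 and its amino acid stress targets, together with cytosolic tRNA synthetases, were followed as a set of 39 genes in human bladder cancer cells. The genes were chosen by name out of 39496 genes in the count table, with earlier results of these data known. Of these, 38 were expressed highly enough to be tested (20144 of all genes were), and FGF21, a secreted metabolic hormone, was not, with 0 to 0.0541 RPKM in the 18 libraries. RPKM is the number of reads counted on a gene scaled to its length and to the counted reads of the library.

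The RNA came from a pair of established lines of human bladder transitional cell cancer, UM-UC-3 and T24. Cells received siNC as control, or siACAT1-1 or siACAT1-2, which are separate siRNAs targeting ACAT1, the gene of a mitochondrial acetyl-CoA acetyltransferase. The labels give the siNC cells as wild type and the others as ACAT1 knockdown, and each of the 6 groups holds libraries from biological replicates 1, 2 and 3. All groups share transfection with an siRNA and medium with fetal bovine serum, but T24 cells grew in RPMI-1640 and UM-UC-3 cells in MEM, so that line and medium cannot be told apart. The time from transfection to lysis, the order of the experiments and what a replicate number marks are not given in the sources used here.

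ATF4 is the transcription factor of the integrated stress response. Kinases that sense unfolded protein, amino acid shortage, haem shortage or viral RNA phosphorylate the initiation factor eIF2, which slows translation in general but lets the ATF4 mRNA be translated. ATF4 then binds composite sites with C/EBP partners and switches on amino acid synthesis, amino acid import and the enzymes that load amino acids onto tRNAs, and, with DDIT3, genes that end or escalate the response.

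The binding element of ATF4 with C/EBP partners is commonly written TGATGNAA, where N is any base, and TTNCATCA on the other strand. RefSeq start-site windows, which run from 250 bases before to 50 bases after a start on GRCh38.p14, were at hand for 31 of the 39 genes. They held the element on either strand in 14 genes, against 4.46% of all 27305 genes with a window and 3.62% of all 35116 windows, and this is a description of the letters with no test. Among the synthetases with a window, 7 of 10 held it. The stretches below show what the element looks like in 11 of the 14 genes, 7 of them synthetases. They run 5′ to 3′ on the strand of the gene, with the element in capitals.
ASNS (chr7:97872458-97872487, minus strand): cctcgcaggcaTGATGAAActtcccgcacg
CHAC1 (chr15:40953251-40953280, plus strand): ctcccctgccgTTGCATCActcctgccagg
ATF3 (chr1:212565205-212565234, plus strand): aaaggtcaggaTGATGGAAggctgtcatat
CEBPG (chr19:33374060-33374089, plus strand): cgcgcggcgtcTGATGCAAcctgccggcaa
AARS (chr16:70289675-70289704, minus strand): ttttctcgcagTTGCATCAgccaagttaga
CARS (chr11:3057407-3057436, minus strand): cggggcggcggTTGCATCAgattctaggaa
GARS (chr7:30594834-30594863, plus strand): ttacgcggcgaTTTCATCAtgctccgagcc
IARS (chr9:92293692-92293721, minus strand): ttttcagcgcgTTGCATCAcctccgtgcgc
MARS (chr12:57488053-57488082, plus strand): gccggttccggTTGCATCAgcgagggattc
NARS (chr18:57621804-57621833, minus strand): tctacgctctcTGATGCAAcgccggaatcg
TARS (chr5:33440956-33440985, plus strand): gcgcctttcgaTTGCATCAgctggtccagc
The element began at base -68 from the start in ASNS, -209 in CHAC1, -191 in ATF3, -42 in CEBPG, -187 in AARS, -33 in GARS, -13 in IARS, -4 in MARS and -2 in CARS, where negative bases lie before the transcript. It began at base 3 of the transcript in TARS and at base 15 in NARS. FGF21, SLC7A1 and SLC3A2 held it as well. Genes without these letters in their window, such as DDIT3, TRIB3, SESN2, GDF15, WARS and SARS, differed between replicate numbers too, as given further on. No match in the other windows says only that these letters were not in them.

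The libraries had between 25163490 and 34417230 counted reads. ACAT1 lay between 44.1 and 47.4 RPKM in the siNC libraries of UM-UC-3 and between 1.83 and 3.59 RPKM after either siACAT1. For T24 these ranges were 14.6 to 17.1 and 0.671 to 1.46 RPKM. The epithelial keratins KRT8 and KRT18 were present in all libraries (27.8 RPKM or more), while of the 11 epithelial or urothelial markers KRT5, CDH1, UPK1B and UPK3A were at or under 0.0599 RPKM in both lines. EPCAM, KRT19 and GATA3 reached at most 0.111, 0.172 and 0.206 RPKM in UM-UC-3 cells, and 2.70, 31.8 and 0.371 RPKM in T24 cells. The keratin KRT7 was at 1.94 to 7.22 RPKM in UM-UC-3 and 81.1 to 371 RPKM in T24 cells. UPK2 was at 0.152 to 0.602 and 0.321 to 0.660 RPKM in the same order. The mesenchymal gene VIM was at 184 to 306 RPKM in UM-UC-3 and 138 to 328 in T24 cells. CDH2 was at 2.78 to 4.43 and 4.59 to 17.9 RPKM, and FN1 at 0.741 to 1.02 and 5.94 to 33.8. Markers of blood and endothelial cells were at or under 0.188 RPKM, and the fibroblast markers COL1A1, COL1A2 and PDGFRB at or under 1.62. Since RNA of whole cultures was sequenced, fewer cells with a transcript and less of it per cell cannot be told apart.

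The UM-UC-3 siACAT1-2 library of replicate 1 stood apart for the members. Over all genes it was more like replicate 2 than the other replicate 1 libraries of UM-UC-3 were. Its departure from its group mean correlated with that of replicate 2 of siNC and siACAT1-1 (r = 0.220 and 0.269) more than with that of replicate 1 (r = 0.115 and 0.143). A fit that pairs libraries by number thus sets it with the less similar libraries. Replicate 1 of siNC and of siACAT1-1 also correlated only weakly with each other (r = 0.169). With replicate 2 of the other UM-UC-3 groups, these libraries of siNC and siACAT1-1 had r from -0.082 to -0.012. With siNC and with siACAT1-1, the median member was higher in replicate 1 than in replicate 2, by 0.93 and 1.30 on the log2 scale of RPKM + 0.01, and nearly level between replicates 3 and 1, with differences of 0.22 and 0.19. With siACAT1-2, replicate 1 was only 0.22 above replicate 2 and 1.36 below replicate 3. Over all tested genes the medians of these differences lay between -0.033 and 0.052 in UM-UC-3 cells.

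Nearly all of these genes differed between the replicate numbers within a cell line, and most did so in 1 order. In UM-UC-3 cells replicate 2 was mostly the lowest and replicate 3 the highest, whereas in T24 cells replicate 1 was mostly the lowest and replicate 2 the highest. An F test of the replicate number in edgeR, with the 6 groups in the model, called 35 of 38 members in UM-UC-3 cells, where 24.6% of all genes tested were called, and 37 of 38 in T24 cells, where 43.9% were. The fitted fold between the highest and the lowest replicate number had a median of 2.54 over the members and 1.37 over all genes for UM-UC-3, and 2.65 against 1.50 for T24. Without the library that stood apart, 35 and 38 members were called, and the share of all genes in that fit is not given here.

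By RPKM, replicate 2 was the lowest of the 3 in each UM-UC-3 group for 27 of the 38 genes, where 12.9% of all genes had this order. Replicate 3 was the highest in each UM-UC-3 group for 25 of them, against 19.4% of all genes. In T24 cells, replicate 1 was the lowest in each group for 35 members, against 16.7% of all genes, and the other 3 were ATF3, ATF5 and SLC7A11. Replicate 2 was the highest in each T24 group for 23 members, against 26% of all genes, and replicate 3 was the highest for ATF4, PHGDH, GPT2, SLC7A11, VLDLR and CARS.

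**Figure D1:**
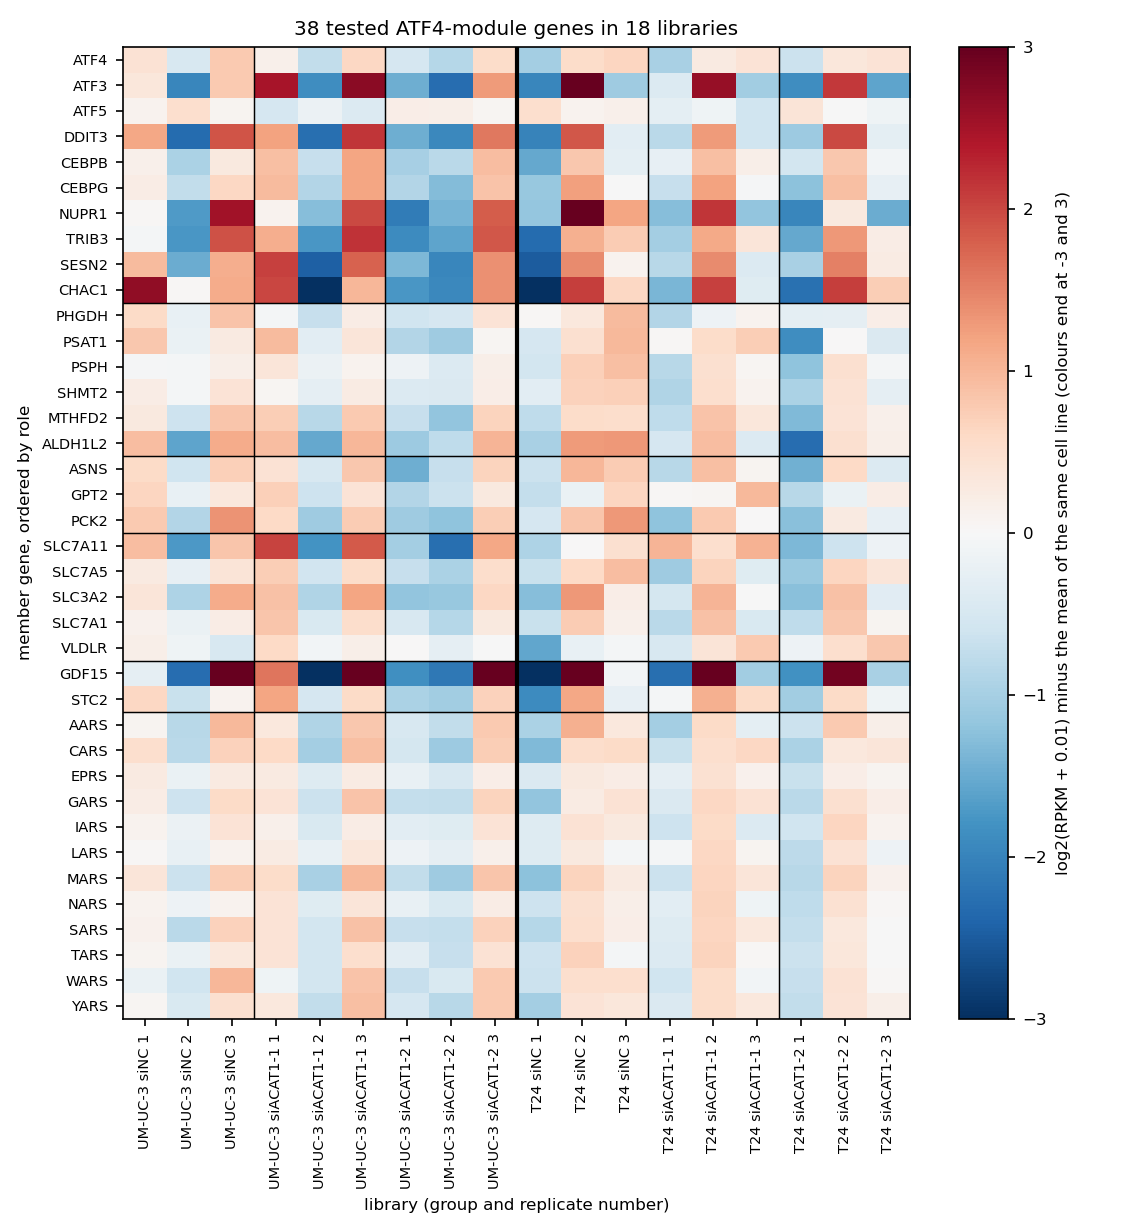
Heat map of log2(RPKM + 0.01) of the 38 tested genes (rows, ordered by role) in the 18 libraries (columns, by group and replicate number), each value relative to the mean of its cell line, with red above and blue below. Columns with the same number look alike within a cell line, with mostly blue columns for replicate 2 of UM-UC-3 and replicate 1 of T24, and the column of UM-UC-3 siACAT1-2 replicate 1 is blue where the other columns of replicate 1 are mostly red.

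Values below are RPKM of replicates 1, 2 and 3 in that order, and the fold in brackets after a cell line is the fitted fold between its highest and lowest replicate number, with the adjusted p of the F test. Among the 10 transcription factors and regulators, 9 were called by replicate number for UM-UC-3 and 10 for T24, with a median span of 3.09 and 2.63 on the log2 scale.

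ATF4 itself was measured in UM-UC-3 cells at 265, 141 and 336 RPKM with siNC, 218, 116 and 302 with siACAT1-1 and 137, 109 and 287 with siACAT1-2. T24 cells held ATF4 at 102, 303 and 321 RPKM with siNC, 104, 249.8 and 272 with siACAT1-1 and 131, 261 and 271 with siACAT1-2. The ATF4 transcript thus varied with the number (UM-UC-3 2.44-fold, adjusted p = 2.65e-06, T24 2.4-fold, adjusted p = 5.86e-07), with replicate 2 low in UM-UC-3 groups and replicate 1 low in T24 groups. DDIT3, which encodes the C/EBP-type factor CHOP of prolonged stress, stood in UM-UC-3 cells at 336, 30.5 and 563 RPKM with siNC, 351, 31.5 and 668 with siACAT1-1 and 54.6, 39.3 and 456 with siACAT1-2. DDIT3 in T24 cells was at 13.8, 201 and 44.2 RPKM with siNC, 31.4, 134 and 36.5 with siACAT1-1 and 26.1, 218 and 45 with siACAT1-2. Replicates 1 and 3 of the UM-UC-3 siNC and siACAT1-1 groups were between 336 and 668 RPKM where replicate 2 was at 30.5 and 31.5, and in T24 cells replicate 2 was the high one (UM-UC-3 15.1-fold, adjusted p = 2.41e-06, T24 7.09-fold, adjusted p = 7.04e-06).

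ATF3, an early stress-induced transcription factor, stood in UM-UC-3 cells at 4.46, 0.903 and 6.07 RPKM with siNC, 19.8, 0.968 and 23.4 with siACAT1-1 and 1.28, 0.717 and 8.54 with siACAT1-2. ATF3 in T24 cells was at 0.561, 20.3 and 1.04 RPKM with siNC, 1.65, 13.5 and 1.06 with siACAT1-1 and 0.596, 9.69 and 0.732 with siACAT1-2, with replicate 2 the highest of each group. ATF5, whose mRNA is also under translational control, did not follow this pattern. In UM-UC-3 cells it was at 20.1, 26.6 and 19.9 RPKM with siNC, 13.2, 16.7 and 14.1 with siACAT1-1 and 21.6, 21.2 and 19.5 with siACAT1-2. ATF5 in T24 cells was at 17.8, 13.6 and 14 RPKM with siNC, 10.3, 11.5 and 8.38 with siACAT1-1 and 16.5, 12.5 and 11.5 with siACAT1-2 (UM-UC-3 1.25-fold, adjusted p = 0.122, T24 1.39-fold, adjusted p = 0.0114).

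CEBPB and CEBPG encode C/EBP factors that pair with ATF4. CEBPB stood in UM-UC-3 cells at 17.6, 8.14 and 19.5 RPKM with siNC, 29.5, 9.75 and 36.1 with siACAT1-1 and 7.97, 9.06 and 30.0 with siACAT1-2, while T24 libraries had 8.38, 42.5 and 19.8 RPKM with siNC, 20.4, 45.2 and 27.3 with siACAT1-1 and 16.4, 42.4 and 22.9 with siACAT1-2. CEBPG stood in UM-UC-3 cells at 24, 12.4 and 31.6 RPKM with siNC, 39.9, 11.2 and 47.3 with siACAT1-1 and 11.2, 8.44 and 37.3 with siACAT1-2, while T24 libraries had 4.38, 22.9 and 9.64 RPKM with siNC, 6.0, 22.6 and 9.44 with siACAT1-1 and 4.17, 18.3 and 8.2 with siACAT1-2. Replicate 3 was the highest of each UM-UC-3 group and replicate 2 of each T24 group for both genes, with fitted folds of 2.99 and 2.75 for CEBPB and 3.51 and 4.0 for CEBPG.

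TRIB3, a pseudokinase that restrains ATF4 and AKT, stood in UM-UC-3 cells at 3.52, 1.08 and 13.7 RPKM with siNC, 7.79, 1.07 and 16.4 with siACAT1-1 and 0.979, 1.22 and 13.2 with siACAT1-2. TRIB3 in T24 cells was at 1.22, 12.7 and 10.4 RPKM with siNC, 2.97, 13.4 and 7.85 with siACAT1-1 and 2.07, 15 and 7.08 with siACAT1-2. Its highest and lowest numbers lay 12.3-fold apart in UM-UC-3 (adjusted p = 1.33e-06) and 6.09-fold in T24 cells (adjusted p = 2.40e-05). SESN2, a leucine-sensing sestrin that restrains mTORC1, stood in UM-UC-3 cells at 18, 3.29 and 19.8 RPKM with siNC, 38.6, 1.69 and 31.7 with siACAT1-1 and 3.63, 2.4 and 24.1 with siACAT1-2. SESN2 in T24 cells was at 0.884, 13.5 and 5.43 RPKM with siNC, 2.81, 13.5 and 3.76 with siACAT1-1 and 2.57, 14.4 and 6.01 with siACAT1-2, again lowest in replicate 1 and highest in replicate 2 of every group. CHAC1, an enzyme that breaks down glutathione, stood in UM-UC-3 cells at 5.96, 0.954 and 2.03 RPKM with siNC, 3.79, 0.0317 and 1.88 with siACAT1-1 and 0.272, 0.237 and 2.45 with siACAT1-2, where replicate 2 was the lowest of each group. CHAC1 in T24 cells was at 0.0847, 4.79 and 1.77 RPKM with siNC, 0.431, 4.77 and 0.888 with siACAT1-1 and 0.234, 4.81 and 1.9 with siACAT1-2 (18-fold, adjusted p = 1.44e-04). NUPR1, a small stress-induced chromatin protein, stood in UM-UC-3 cells at 4.55, 1.35 and 25.3 RPKM with siNC, 4.77, 1.8 and 17.5 with siACAT1-1 and 1.02, 1.68 and 15.4 with siACAT1-2. NUPR1 in T24 cells was at 0.113, 2.93 and 0.616 RPKM with siNC, 0.104, 1.22 and 0.112 with siACAT1-1 and 0.0607, 0.325 and 0.0888 with siACAT1-2, with replicate 2 of siNC above all other T24 libraries.

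**Figure D2:**
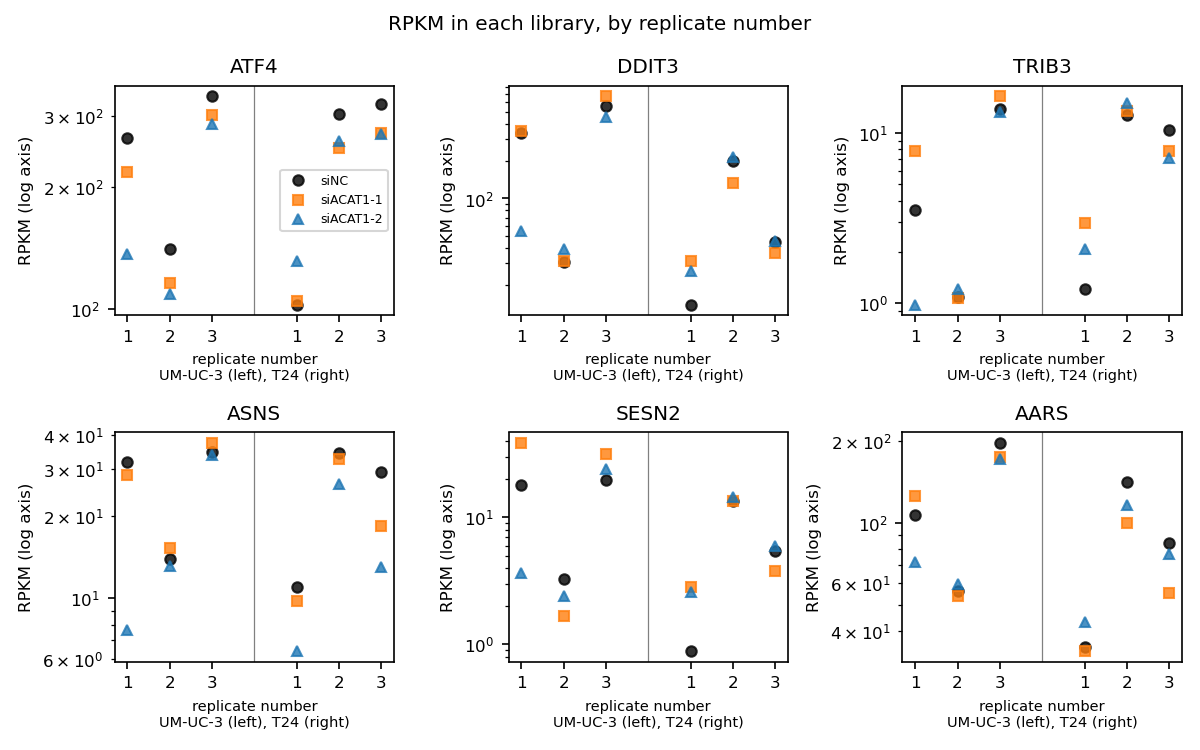
RPKM (log axis) of ATF4, DDIT3, TRIB3, ASNS, SESN2 and AARS in each library, by replicate number in UM-UC-3 cells (left of each panel) and T24 cells (right), with 1 point per library and the siRNA by colour and shape. The siACAT1-2 point of UM-UC-3 replicate 1 lies below the other points of that number in every panel, near or below those of replicate 2, while replicate 1 is low in T24 cells with all 3 siRNAs.

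The serine, glycine and folate enzymes had smaller spans (median 0.88 on the log2 scale for UM-UC-3 and 1.20 for T24), and 5 of 6 were called by replicate number for UM-UC-3 and 6 of 6 for T24. PHGDH, the first enzyme of serine synthesis, stood in UM-UC-3 cells at 97.9, 56.9 and 120.4 RPKM with siNC, 63.4, 40.9 and 77.6 with siACAT1-1 and 43.7, 47 and 88.8 with siACAT1-2. PHGDH in T24 cells was at 52.1, 63 and 97.5 RPKM with siNC, 27.4, 45.8 and 54.3 with siACAT1-1 and 41.3, 42.4 and 57.9 with siACAT1-2. Within each number of each line, both siACAT1 libraries lay below the siNC library. PSAT1, the second enzyme of the pathway, stood in UM-UC-3 cells at 34.7, 17.2 and 23.9 RPKM with siNC, 38.4, 15.8 and 25.5 with siACAT1-1 and 10.7, 9.49 and 20.5 with siACAT1-2. PSAT1 in T24 cells was at 31.6, 62.7 and 87.2 RPKM with siNC, 45.4, 65.4 and 74.2 with siACAT1-1 and 12.3, 44.8 and 33.1 with siACAT1-2, and its siACAT1-2 library was the lowest of the 3 groups at every number in both lines. PSPH, the last enzyme of serine synthesis, stood in UM-UC-3 cells at 3.57, 3.52 and 4.11 RPKM with siNC, 4.67, 3.24 and 3.9 with siACAT1-1 and 3.28, 2.74 and 4.15 with siACAT1-2 and had no difference by number past the threshold there (adjusted p = 0.286). PSPH in T24 cells was at 4.63, 11.2 and 12.7 RPKM with siNC, 3.81, 9.41 and 7.02 with siACAT1-1 and 2.93, 9.5 and 6.55 with siACAT1-2 (2.44-fold, adjusted p = 2.55e-06).

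SHMT2, the mitochondrial enzyme that turns serine into glycine, stood in UM-UC-3 cells at 23.1, 19.2 and 26.6 RPKM with siNC, 20.7, 16.5 and 23.7 with siACAT1-1 and 15, 14.7 and 22.8 with siACAT1-2. SHMT2 in T24 cells was at 20.4, 40.6 and 41.3 RPKM with siNC, 13.6, 36 and 27.1 with siACAT1-1 and 13.2, 34 and 20.9 with siACAT1-2. As for PHGDH, every siACAT1 library of SHMT2 lay below the siNC library of its number. MTHFD2, a mitochondrial folate enzyme, stood in UM-UC-3 cells at 33.5, 17.8 and 48.9 RPKM with siNC, 45.3, 15.5 and 47.2 with siACAT1-1 and 17, 12 and 43.1 with siACAT1-2, while T24 libraries had 11.2, 27.7 and 27 RPKM with siNC, 11.2, 34.3 and 24.1 with siACAT1-1 and 7.54, 25 and 20.8 with siACAT1-2. The lowest libraries of MTHFD2 were those of replicate 2 in each UM-UC-3 group and of replicate 1 in each T24 group. ALDH1L2, another mitochondrial folate enzyme, stayed under 0.8 RPKM, in UM-UC-3 cells at 0.379, 0.0586 and 0.438 RPKM with siNC, 0.379, 0.0613 and 0.399 with siACAT1-1 and 0.0864, 0.111 and 0.404 with siACAT1-2. ALDH1L2 in T24 cells was at 0.154, 0.776 and 0.788 RPKM with siNC, 0.217, 0.604 and 0.234 with siACAT1-1 and 0.0566, 0.438 and 0.355 with siACAT1-2, lowest in replicate 1 of each group.

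Of the other amino acid enzymes, 3 of 3 were called by number in both lines. ASNS, asparagine synthetase, stood in UM-UC-3 cells at 31.7, 13.9 and 34.6 RPKM with siNC, 28.3, 15.3 and 37.3 with siACAT1-1 and 7.67, 13.1 and 33.8 with siACAT1-2. ASNS in T24 cells was at 11, 34.3 and 29.2 RPKM with siNC, 9.76, 32.5 and 18.4 with siACAT1-1 and 6.39, 26.2 and 13.1 with siACAT1-2 (3.18-fold, adjusted p = 8.32e-05). The UM-UC-3 siACAT1-2 library of replicate 1 was the lowest of the 9 UM-UC-3 libraries for ASNS. PCK2, mitochondrial phosphoenolpyruvate carboxykinase, stood in UM-UC-3 cells at 9.05, 2.87 and 13.5 RPKM with siNC, 7.91, 2.52 and 8.93 with siACAT1-1 and 2.49, 2.26 and 8.72 with siACAT1-2. PCK2 in T24 cells was at 4.36, 11.1 and 15.4 RPKM with siNC, 2.69, 10.7 and 6.24 with siACAT1-1 and 2.58, 7.54 and 5.27 with siACAT1-2, with every siACAT1 library below the siNC library of its number in both lines. GPT2, the mitochondrial alanine transaminase, stood in UM-UC-3 cells at 5.76, 3.15 and 4.57 RPKM with siNC, 6.09, 2.41 and 4.88 with siACAT1-1 and 1.99, 2.36 and 4.56 with siACAT1-2, while T24 libraries had 4.02, 5.82 and 10.4 RPKM with siNC, 6.84, 6.88 and 13 with siACAT1-1 and 3.71, 5.81 and 7.75 with siACAT1-2. In T24 cells GPT2 was highest in replicate 3 of each group.

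The transporters and the receptor gene VLDLR were called in 4 of 5 cases in each line. SLC7A11, the cystine importer xCT, stood in UM-UC-3 cells at 3.83, 0.598 and 3.54 RPKM with siNC, 8.24, 0.568 and 7.18 with siACAT1-1 and 0.977, 0.409 and 4.51 with siACAT1-2 (9.25-fold, adjusted p = 9.19e-06). SLC7A11 in T24 cells was at 3.47, 6.72 and 9.29 RPKM with siNC, 13.5, 9.43 and 13.6 with siACAT1-1 and 2.59, 4.3 and 5.95 with siACAT1-2, where the numbers did not differ past the threshold (adjusted p = 0.135) and siACAT1-1 was the highest group at every number. SLC7A5, the large neutral amino acid transporter, stood in UM-UC-3 cells at 13.1, 9.22 and 14.2 RPKM with siNC, 18.2, 7.27 and 15.9 with siACAT1-1 and 6.77, 5.59 and 15.8 with siACAT1-2. SLC7A5 in T24 cells was at 18.2, 43.5 and 54.5 RPKM with siNC, 13.8, 45.9 and 22.3 with siACAT1-1 and 13.2, 45.2 and 37.3 with siACAT1-2, lowest in replicate 1 of each group. SLC3A2 encodes the heavy chain that pairs with both of these transporters, and stood in UM-UC-3 cells at 46.4, 19.2 and 79.1 RPKM with siNC, 66.7, 19.4 and 81.9 with siACAT1-1 and 16, 16.5 and 56 with siACAT1-2. SLC3A2 in T24 cells was at 27.3, 161 and 75.9 RPKM with siNC, 45.7, 134 and 65.2 with siACAT1-1 and 27.6, 122 and 51.8 with siACAT1-2, with replicate 2 libraries at 122 RPKM or more and the others at 75.9 or less. SLC7A1, a cationic amino acid transporter, stood in UM-UC-3 cells at 4.19, 3.32 and 4.49 RPKM with siNC, 6.78, 2.79 and 5.53 with siACAT1-1 and 2.73, 2.12 and 4.67 with siACAT1-2, while T24 libraries had 2.99, 8.16 and 5.29 RPKM with siNC, 2.72, 8.81 and 3.5 with siACAT1-1 and 2.82, 8.43 and 5.1 with siACAT1-2. Replicate 2 of SLC7A1 was the lowest of each UM-UC-3 group and the highest of each T24 group. VLDLR, a lipoprotein receptor, stood in UM-UC-3 cells at 1.62, 1.31 and 1.02 RPKM with siNC, 2.15, 1.35 and 1.61 with siACAT1-1 and 1.43, 1.18 and 1.43 with siACAT1-2 without a difference by number past the threshold (adjusted p = 0.0963). VLDLR in T24 cells was at 0.436, 1.12 and 1.26 RPKM with siNC, 0.938, 1.72 and 2.28 with siACAT1-1 and 1.18, 1.87 and 2.3 with siACAT1-2, where both siACAT1 libraries lay above siNC at every number.

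The tested secreted factors, GDF15 and STC2, had the widest median span of the role groups in both lines. GDF15, a stress-induced hormone, stood in UM-UC-3 cells at 0.272, 0.0597 and 3.01 RPKM with siNC, 1.02, 0 and 3.84 with siACAT1-1 and 0.0839, 0.0669 and 3.39 with siACAT1-2, highest in replicate 3 of each group. GDF15 in T24 cells was at 0.0557, 8.42 and 0.684 RPKM with siNC, 0.142, 6.97 and 0.343 with siACAT1-1 and 0.198, 5.44 and 0.362 with siACAT1-2, with replicate 2 high. The fitted folds were 77 (adjusted p = 2.46e-07) and 48 (adjusted p = 9.80e-09). In UM-UC-3 siACAT1-1 replicate 2 the gene had 0 reads, so the fold there depends on the prior count of the fit. STC2, a secreted glycoprotein induced by stress of the endoplasmic reticulum, stood in UM-UC-3 cells at 8.51, 3.51 and 6.02 RPKM with siNC, 12.7, 3.93 and 8.26 with siACAT1-1 and 2.86, 2.7 and 8.94 with siACAT1-2, while T24 libraries had 11.8, 97.3 and 37.1 RPKM with siNC, 42.4, 91.6 and 65.7 with siACAT1-1 and 21.3, 65.7 and 39.9 with siACAT1-2. Replicate 2 of STC2 was thus the lowest of each UM-UC-3 group and the highest of each T24 group.

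All 12 synthetases were called by number in both lines, with a median span of 1.33 on the log2 scale for UM-UC-3 and 0.99 for T24. AARS, which loads alanine, stood in UM-UC-3 cells at 107, 56.4 and 197 RPKM with siNC, 126, 53.9 and 175 with siACAT1-1 and 71.8, 59.8 and 172 with siACAT1-2, while T24 libraries had 35, 142 and 84.2 RPKM with siNC, 33.7, 100.3 and 55.3 with siACAT1-1 and 43.3, 117 and 77 with siACAT1-2. SARS, which loads serine, stood in UM-UC-3 cells at 158, 82.6 and 234 RPKM with siNC, 192, 98.5 and 268 with siACAT1-1 and 89.5, 88.9 and 235 with siACAT1-2, while T24 libraries had 87.9, 224 and 181 RPKM with siNC, 121, 246 and 197 with siACAT1-1 and 95.9, 196 and 157 with siACAT1-2. Both showed replicate 3 high in UM-UC-3 cells and replicate 2 high in T24 cells. WARS, the tryptophan enzyme, stood in UM-UC-3 cells at 7.97, 6.11 and 18.3 RPKM with siNC, 8.42, 6.29 and 16.5 with siACAT1-1 and 5.69, 6.66 and 15.9 with siACAT1-2 (2.54-fold, adjusted p = 3.36e-07). WARS in T24 cells was at 11.1, 24.3 and 24.6 RPKM with siNC, 11.4, 25.2 and 16.3 with siACAT1-1 and 10.6, 23.3 and 17.7 with siACAT1-2 (1.99-fold, adjusted p = 1.43e-05). In UM-UC-3 cells replicate 3 of WARS stood above both other numbers in all 3 groups.

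MARS, the methionine enzyme, stood in UM-UC-3 cells at 55.4, 27.8 and 72 RPKM with siNC, 63.3, 22.2 and 84.5 with siACAT1-1 and 25.8, 20.7 and 76.9 with siACAT1-2, while T24 libraries had 9.64, 36.3 and 27.3 RPKM with siNC, 14.6, 35.7 and 29.2 with siACAT1-1 and 12.7, 36.2 and 24.8 with siACAT1-2. CARS, the cysteine enzyme, stood in UM-UC-3 cells at 41.3, 16.5 and 47.2 RPKM with siNC, 43.7, 14.4 and 54.6 with siACAT1-1 and 20.0, 13.7 and 48.6 with siACAT1-2, while T24 libraries had 10.2, 36.5 and 38 RPKM with siNC, 16, 36.1 and 39.3 with siACAT1-1 and 13.2, 31.8 and 32.5 with siACAT1-2. These were the synthetases with the widest spans in UM-UC-3 cells, at 3.25-fold for CARS and 3.21-fold for MARS. GARS, the glycine enzyme, stood in UM-UC-3 cells at 63.6, 35.2 and 81.6 RPKM with siNC, 72.7, 34.7 and 98.3 with siACAT1-1 and 32.9, 32.6 and 85.9 with siACAT1-2, while T24 libraries had 40.4, 107 and 124 RPKM with siNC, 67, 141 and 124 with siACAT1-1 and 52.2, 127 and 105 with siACAT1-2. YARS, the tyrosine enzyme, stood in UM-UC-3 cells at 25.6, 17.9 and 34.1 RPKM with siNC, 30.3, 14.8 and 46.2 with siACAT1-1 and 17.2, 13.7 and 42 with siACAT1-2, while T24 libraries had 8.52, 23 and 21.8 RPKM with siNC, 12.7, 25.1 and 21.6 with siACAT1-1 and 10.3, 23 and 19.4 with siACAT1-2. For these 2 enzymes replicate 2 was low in UM-UC-3 cells and replicate 1 in T24 cells, as for ATF4.

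EPRS, which loads glutamate and proline, stood in UM-UC-3 cells at 68.9, 49.7 and 68.9 RPKM with siNC, 68.6, 43.4 and 67.9 with siACAT1-1 and 48.6, 40.8 and 65.2 with siACAT1-2, while T24 libraries had 37.1, 61.9 and 58.4 RPKM with siNC, 41.3, 68.8 and 54.7 with siACAT1-1 and 31.7, 57.7 and 52.9 with siACAT1-2. LARS, the leucine enzyme, stood in UM-UC-3 cells at 62, 52.3 and 64.9 RPKM with siNC, 72.1, 52.4 and 76.7 with siACAT1-1 and 54.9, 50.3 and 67.6 with siACAT1-2, while T24 libraries had 19.9, 31.7 and 25.1 RPKM with siNC, 25, 39.8 and 27.6 with siACAT1-1 and 15, 35 and 23.5 with siACAT1-2. The smallest fitted folds among the synthetases were 1.29 for LARS in UM-UC-3 and 1.56 for EPRS in T24 cells. IARS, the isoleucine enzyme, stood in UM-UC-3 cells at 18.7, 15.5 and 22.9 RPKM with siNC, 19.2, 12.6 and 20.3 with siACAT1-1 and 13.8, 13.6 and 23.2 with siACAT1-2, while T24 libraries had 18.9, 33.7 and 30.1 RPKM with siNC, 16, 36.7 and 18.6 with siACAT1-1 and 16.4, 38.5 and 26.6 with siACAT1-2. NARS, the asparagine enzyme, stood in UM-UC-3 cells at 136, 112 and 135 RPKM with siNC, 167, 98.1 and 162 with siACAT1-1 and 108, 91.2 and 146 with siACAT1-2, while T24 libraries had 92.9, 198 and 162 RPKM with siNC, 114, 226 and 131 with siACAT1-1 and 84.2, 197 and 145 with siACAT1-2. TARS, the threonine enzyme, stood in UM-UC-3 cells at 62.4, 51.4 and 73.4 RPKM with siNC, 78.4, 39.7 and 83.4 with siACAT1-1 and 46.7, 36.1 and 78.8 with siACAT1-2, while T24 libraries had 36.7, 91.1 and 54.3 RPKM with siNC, 42.4, 89.5 and 57.8 with siACAT1-1 and 36.3, 71.5 and 56 with siACAT1-2. In T24 cells replicate 2 was the highest of each group for IARS, NARS and TARS.

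**Figure D3:**
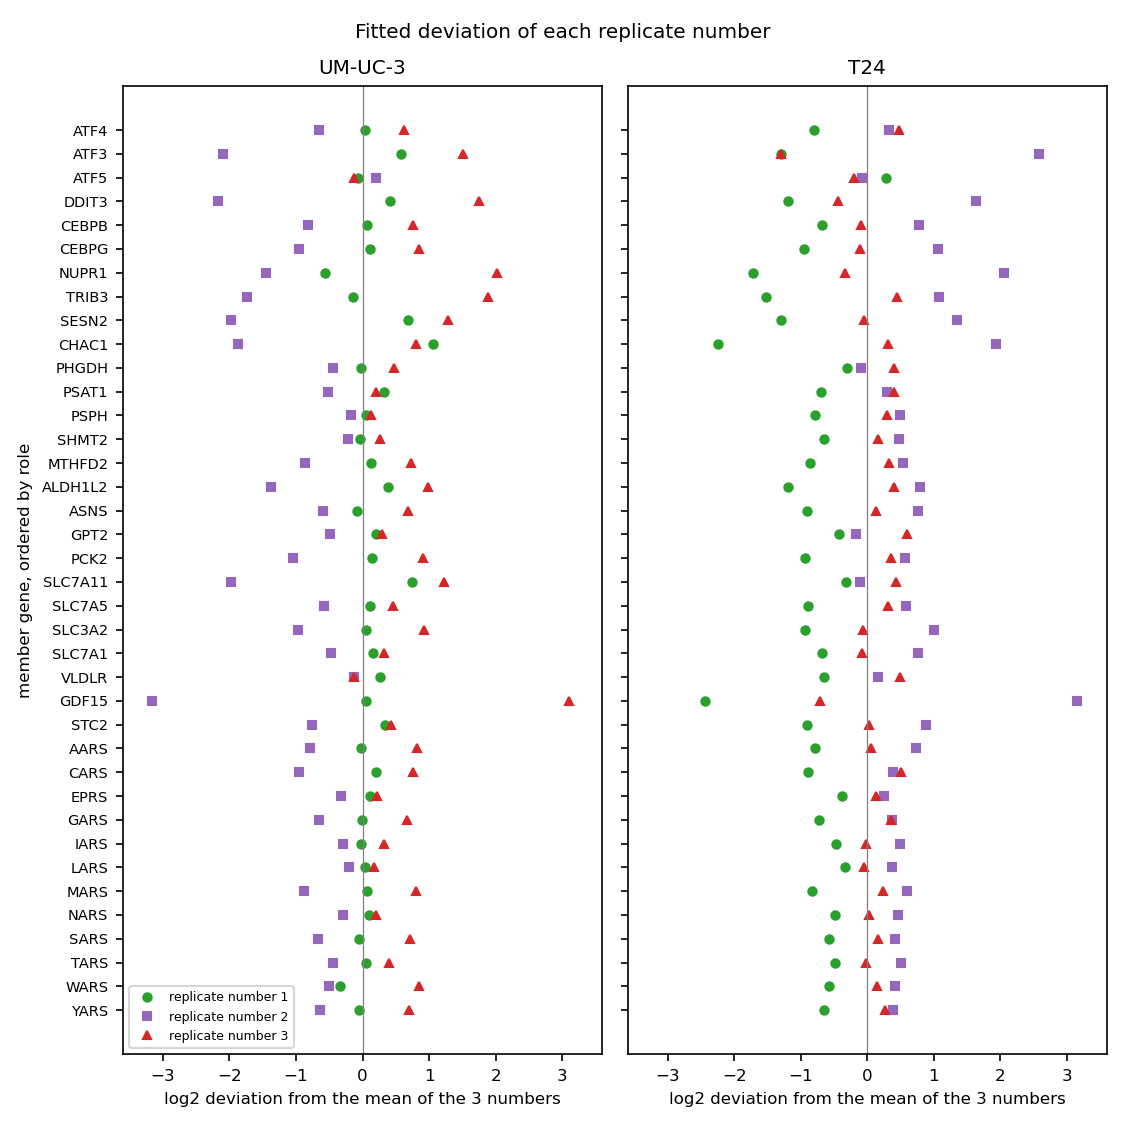
Fitted log2 deviation of each replicate number (horizontal axis) from the mean of the 3 numbers for the 38 tested genes (rows, by role), in UM-UC-3 cells (left) and T24 cells (right). In UM-UC-3 cells replicate 2 lies left of 0 for all genes but ATF5, and in T24 cells replicate 1 does so for all but ATF5, with the widest spread for GDF15.

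Synthetase genes outside the members were counted in the same way, where 24.6% of all genes were called for UM-UC-3 and 43.9% for T24. Of 11 further cytosolic synthetases and proteins of their complex, 1 was called for UM-UC-3 and 8 for T24, with a median span of 0.15 and 0.35 on the log2 scale. In T24 cells RARS, the arginine enzyme, had deviations of 0.35, -0.30 and -0.045 for replicates 1, 2 and 3 (adjusted p = 1.06e-04), and EEF1E1, a protein of the complex, -0.25, 0.41 and -0.16 (adjusted p = 4.49e-04). Of the 8, replicate 2 was the highest for 3 (EEF1E1, AIMP1 and DARS), as for most members, replicate 1 for 4 and replicate 3 for 1. Of 17 mitochondrial synthetases, 2 were called for UM-UC-3 and 9 for T24, with medians of 0.30 and 0.39. The difference between these lists and the members was not tested.

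Other ATF4 targets, listed like the members with earlier results of these data known, also varied with the number. Of 18, 14 were called for UM-UC-3 and 16 for T24, with a median span of 1.07 and 1.16 on the log2 scale. Of all genes, 24.6% and 43.9% were called, which is the background for each list here. Replicate 2 was the lowest and replicate 3 the highest for all 14 in UM-UC-3 cells. For T24, replicate 1 was the lowest for 15 of the 16 and replicate 2 the highest for 11. In UM-UC-3 cells CBS, a cysteine synthesis enzyme, deviated by 0.12, -1.24 and 1.12 (adjusted p = 1.62e-06), and in T24 cells KLHL24 by -1.33, 1.52 and -0.19 (adjusted p = 6.37e-08). Of 10 genes upstream of ATF4, 5 and 8 were called, among them PPP1R15A, a subunit of the eIF2 phosphatase and itself induced by ATF4, with deviations of 0.20, -1.23 and 1.03 in UM-UC-3 cells (adjusted p = 3.94e-06) and -1.03, 1.79 and -0.77 in T24 cells (adjusted p = 9.18e-09). The eIF2 kinase genes EIF2AK1 and EIF2AK4, for HRI and GCN2, went the other way, with 0.25, -0.54 and 0.29 (adjusted p = 1.43e-06) and 0.41, -0.53 and 0.12 (adjusted p = 2.68e-05) in T24 cells, and both were lowest in replicate 3 of UM-UC-3 cells (adjusted p = 0.0018 and 0.0433). EIF2AK3, for PERK, was highest in replicate 3 of UM-UC-3 (adjusted p = 0.0342) and in replicate 2 of T24 (adjusted p = 0.00218). Of 8 genes of unfolded protein chaperones and their regulator XBP1, 7 were called for UM-UC-3 and 5 for T24. HSPA5, the chaperone BiP, deviated by -0.40, -1.17 and 1.57 in UM-UC-3 cells (adjusted p = 1.96e-08) and by -0.32, 0.55 and -0.23 in T24 cells (adjusted p = 6.27e-04).

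Some properties of the libraries moved with the number. Mitochondrial transcripts took 4.34% to 5.01% of the reads in replicate 3 of UM-UC-3 cells against 5.72% to 6.17% in the other numbers, and 3.01% to 3.54% in replicate 2 of T24 cells against 4.18% to 5.28%. The 10 most abundant genes took 5.25% to 5.79% of the reads in replicate 2 of T24 cells and 6.74% to 7.54% in replicate 1. The counted reads were 28224125 to 28558421 in replicate 1, 28667905 to 32088180 in replicate 2 and 28522446 to 30888978 in replicate 3 of UM-UC-3 cells, where replicate 3 overlapped both, and they overlapped between the numbers in T24 cells. The part of these properties in the result was not tested.

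Knockdown of ACAT1 was the comparison the study was designed for, and it asks which of these genes differed between siACAT1 and siNC. With the replicate number in the model as a block, 3 members were lower on the mean of both siRNAs and both lines and in every pair of libraries. These were PHGDH and SHMT2, of serine and glycine synthesis, and PCK2, and without the block no member was called. In single comparisons with the block, SHMT2 and PSPH were called lower and VLDLR higher in T24 cells alone. PSAT1 was called lower with siACAT1-2 alone, and PCK2 with siACAT1-2 in T24 cells alone. With siACAT1-2 in UM-UC-3 cells PCK2 was at -0.94 (adjusted p = 0.0595) and SHMT2 at -0.45 (adjusted p = 0.0771), both past the threshold. With the block, no member had a knockdown effect called different between the lines, as given further on. Without the block, edgeR called 0 of 38 members in each of the 4 comparisons of an siRNA with siNC. Background shares were 0.00993% of all genes for siACAT1-1 and 0.0546% for siACAT1-2 on the UM-UC-3 side, and 0.124% and 0.268% on the T24 side. At an unadjusted p under 0.05 there were 1, 1, 3 and 2 members in this order, and DESeq2 also called 0 in each. The comparisons within a line share the siNC libraries.

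With the replicate block, 3 members were called for siACAT1-1 in UM-UC-3 cells (3.06% of all genes), 3 for siACAT1-2 in UM-UC-3 cells (1.36%), 7 for siACAT1-1 in T24 cells (13.9%) and 7 for siACAT1-2 in T24 cells (8.48%). Over the 4 comparisons together, 8 of 38 members were called with the block, of which 7 were lower and VLDLR was higher, where 12.4% of all genes were called. Without the block it was 0 of 38 with 0.223% of all genes, 3 members had an unadjusted p under 0.05, and DESeq2 called 0. The median log2 fold change of the members over the 4 comparisons was -0.096 with the block (-0.042 without UM-UC-3 siACAT1-2 replicate 1) and that of all genes was -9.93e-04.

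PHGDH fell in all 4 comparisons with the block, of which siACAT1-2 in UM-UC-3 cells was lost without the library that stood apart (-0.43, adjusted p = 0.243). Its mean level was 91.7 ± 32.2 RPKM (SD, n = 3) with siNC, 60.7 ± 18.5 with siACAT1-1 and 59.8 ± 25.1 with siACAT1-2 for UM-UC-3. For T24 these means were 70.9 ± 23.7, 42.5 ± 13.8 and 47.2 ± 9.3 RPKM. The groups overlap, since the numbers spread each of them, but PHGDH was lower in 12 of 12 pairs of an siACAT1 and an siNC library of the same line and number. Over the 4 comparisons its log2 fold change was -0.62 (SE 0.089, adjusted p = 1.65e-04) with the block and -0.64 (SE 0.20, adjusted p = 0.236) without it. By comparison it was -0.59 (SE 0.15, adjusted p = 0.0373) and -0.66 (SE 0.15, adjusted p = 0.0306) for UM-UC-3 and -0.72 (SE 0.15, adjusted p = 0.00314) and -0.53 (SE 0.15, adjusted p = 0.0308) for T24, in the order siACAT1-1 and siACAT1-2.

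SHMT2 and PCK2 were also lower in 12 of 12 pairs. These were the 3 members with that order, while 1.68% of all genes were lower and 1.75% higher in every pair, and 0 members were higher in every pair. SHMT2 had a mean of 34.1 ± 11.9 RPKM with siNC and 22.7 ± 10.5 with siACAT1-2 in T24 cells (SD, n = 3), and a change over the 4 comparisons of -0.42 (SE 0.074, adjusted p = 9.75e-04) with the block against -0.40 (SE 0.20, adjusted p = 0.491) without it. PCK2 changed by -0.73 (SE 0.14, adjusted p = 0.00231) with the block and by -0.75 (SE 0.38, adjusted p = 0.506) without it. In single comparisons with the block, SHMT2 was called in T24 cells with both siRNAs, at -0.45 (SE 0.12, adjusted p = 0.0189) and -0.61 (SE 0.12, adjusted p = 0.00405). In UM-UC-3 cells it was not called, at -0.18 (SE 0.12, adjusted p = 0.452) with siACAT1-1 and -0.45 (SE 0.12, adjusted p = 0.0771) with siACAT1-2. PCK2 was called in T24 cells with siACAT1-2, at -0.96 (SE 0.24, adjusted p = 0.0152). In UM-UC-3 cells PCK2 was not called, at -0.33 (SE 0.24, adjusted p = 0.495) with siACAT1-1 and -0.94 (SE 0.24, adjusted p = 0.0595) with siACAT1-2.

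The other enzymes of serine synthesis were called with the block over the 4 comparisons, but not in each of them. PSPH changed by -0.30 (SE 0.091, adjusted p = 0.0359) and was lower in 10 of 12 pairs, and it was lost without the library that stood apart (-0.29, adjusted p = 0.0558). PSAT1 changed by -0.45 (SE 0.13, adjusted p = 0.0332) and was lower in 8 of 12 pairs, and it was called with siACAT1-2, at -0.92 (SE 0.23, adjusted p = 0.0471) in UM-UC-3 and -1.04 (SE 0.22, adjusted p = 0.00605) for T24. With siACAT1-1 it stood at 0.038 (SE 0.22, adjusted p = 0.965) and 0.14 (SE 0.22, adjusted p = 0.743). Without the library that stood apart its mean was -0.36 (adjusted p = 0.0375), and siACAT1-2 was no longer called in UM-UC-3 cells. In T24 cells PSPH was at -0.46 (SE 0.15, adjusted p = 0.0405) and -0.60 (SE 0.15, adjusted p = 0.0141) with siACAT1-1 and siACAT1-2, and in UM-UC-3 cells it stood at 0.066 (SE 0.15, adjusted p = 0.873) and -0.19 (SE 0.15, adjusted p = 0.656). Without the block the adjusted p over the 4 comparisons was 0.697 for PSPH and 0.555 for PSAT1. Of the 6 serine, glycine and folate enzymes, 4 were thus called lower on the mean of the 4 comparisons. In single comparisons PSAT1 was called with siACAT1-2 only, and PSPH and SHMT2 in T24 cells only. The knockdown effect on these genes was not called different between the lines, as given further on. MTHFD2 and ALDH1L2 were not called on the mean, at -0.20 (SE 0.10, adjusted p = 0.191) and -0.53 (SE 0.24, adjusted p = 0.172).

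ATF5 and NUPR1 were the regulators called lower over the 4 comparisons. ATF5 was lower in 11 of 12 pairs and changed by -0.36 (SE 0.078, adjusted p = 0.00461) over the 4 comparisons with the block. It was called with siACAT1-1, at -0.59 (SE 0.13, adjusted p = 0.0175) in UM-UC-3 and -0.57 (SE 0.13, adjusted p = 0.00624) for T24, and not with siACAT1-2, at -0.13 (SE 0.13, adjusted p = 0.746) and -0.15 (SE 0.13, adjusted p = 0.528). NUPR1 changed by -1.24 (SE 0.22, adjusted p = 0.00117), and was called in T24 cells, at -1.33 (SE 0.41, adjusted p = 0.0356) with siACAT1-1 and -2.76 (SE 0.48, adjusted p = 0.00114) with siACAT1-2. Most of its T24 reads with siNC were in replicate 2, and without that library and without the block the siACAT1-1 value in T24 cells turned from -1.30 to 0.39.

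VLDLR was higher over the 4 comparisons, by 0.56 (SE 0.10, adjusted p = 9.97e-04) with the block and 0.54 (SE 0.22, adjusted p = 0.37) without it, and was higher in 10 of 12 pairs. It was called in T24 cells with siACAT1-1, at 0.85 (SE 0.16, adjusted p = 0.00156), and with siACAT1-2, at 1.01 (SE 0.16, adjusted p = 5.17e-04), and not in UM-UC-3 cells, at 0.36 (SE 0.16, adjusted p = 0.213) and 0.006 (SE 0.16, adjusted p = 1.0). SLC7A11 rose in T24 cells with siACAT1-1, at 1.03 (SE 0.32, adjusted p = 0.0379), and had means of 6.49 ± 2.92 RPKM with siNC and 12.2 ± 2.37 with siACAT1-1 (SD, n = 3). ATF3 rose in UM-UC-3 cells with siACAT1-1, at 1.61 (SE 0.40, adjusted p = 0.0343), where replicates 1 and 3 were high and replicate 2 was not.

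ATF4 was lower in 10 of 12 pairs and was not called over the 4 comparisons. It was called in 1 comparison, siACAT1-2 in UM-UC-3 cells, at -0.55 (SE 0.13, adjusted p = 0.0367) with the block and -0.52 (SE 0.47, adjusted p = 1.0) without it. This comparison rests on the library that stood apart. With the block and without that library, 0 of its members were called (0.550% of all genes). The values became -0.37 (adjusted p = 0.29) for ATF4, -0.43 (adjusted p = 0.243) for PHGDH and -0.56 (adjusted p = 0.303) for PSAT1. GPT2, among the 3 smallest p values there without the block, was at -0.65 (SE 0.41, adjusted p = 1.0). Over the 4 comparisons, leaving out the library gave 9 called members (11.4% of all genes), with PHGDH at -0.56 (adjusted p = 1.06e-04), SHMT2 at -0.40 (adjusted p = 0.00179) and PCK2 at -0.63 (adjusted p = 8.13e-04), while PSPH was no longer called at -0.29 (adjusted p = 0.0558). It gave 4 called members for siACAT1-1 in UM-UC-3 (3.15% of all genes), and 13 and 9 for siACAT1-1 and siACAT1-2 in T24 (13.5% and 8.10%).

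The synthetases and most regulators of the response were not called against siNC. With the block, 0 of 12 synthetases were called in each of the 4 comparisons and over all 4, where their log2 fold changes lay between -0.17 and 0.078. At an unadjusted p under 0.05 there were 0 and 5 synthetases for siACAT1-1 and siACAT1-2 in UM-UC-3, 3 and 0 in T24 and 1 over all 4. DDIT3, TRIB3, SESN2, CHAC1 and ASNS were at -0.053 (SE 0.22, adjusted p = 0.934), 0.11 (SE 0.21, adjusted p = 0.796), 0.14 (SE 0.27, adjusted p = 0.806), -0.61 (SE 0.36, adjusted p = 0.304) and -0.44 (SE 0.15, adjusted p = 0.0561). CEBPB was higher in 10 of 12 pairs and was not called over the 4 comparisons. A p that misses the threshold does not show that these levels were equal.

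**Figure D4:**
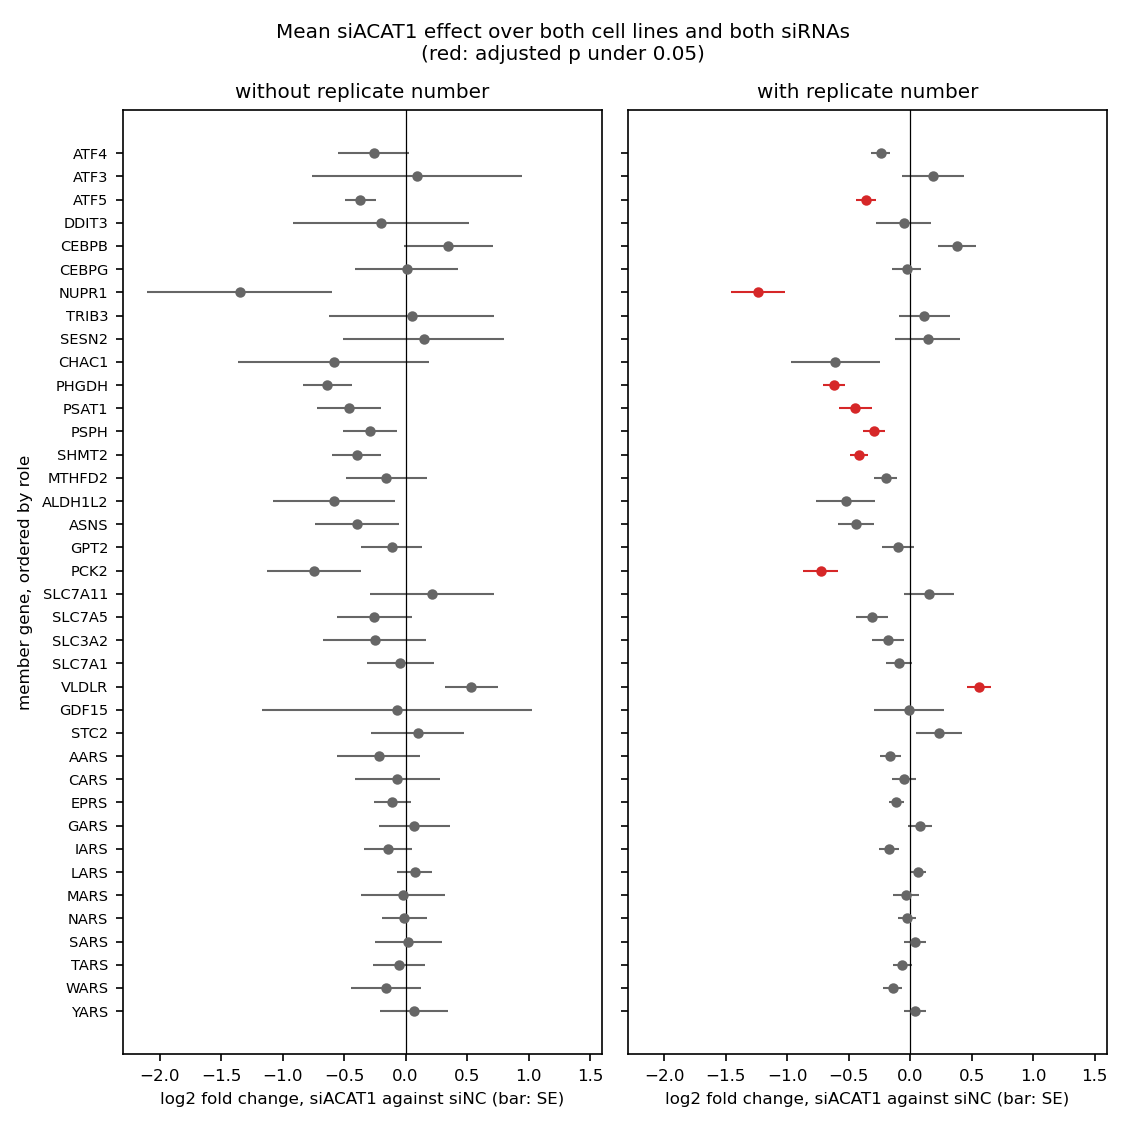
Log2 fold change (horizontal axis, bars are SE) of siACAT1 against siNC, as the mean over both cell lines and both siRNAs, for the 38 tested genes (rows, by role), without (left) and with (right) the replicate number in the model. No gene is red, which marks an adjusted p under 0.05, on the left, and 8 are red on the right, with VLDLR the 1 to the right of 0.

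Over the 4 comparisons, 12.4% of all genes were called with the block and 0.223% without it. Further ATF4 targets gave 6 called genes of 18 with the block, 4 lower and 2 higher, and 0 without it. The lower ones were PYCR1 and ALDH18A1, which make proline, SLC1A4, a transporter of small neutral amino acids, and MTHFD1L, a mitochondrial folate enzyme, at -0.65 (SE 0.12, adjusted p = 0.00139), -0.29 (SE 0.076, adjusted p = 0.0165), -0.74 (SE 0.18, adjusted p = 0.00962) and -0.38 (SE 0.078, adjusted p = 0.00334). KLHL24 and NFE2L1 were higher, at 0.48 (SE 0.15, adjusted p = 0.0368) and 0.22 (SE 0.064, adjusted p = 0.0284). Of the 11 further cytosolic synthetase genes FARSB was lower, and of the 17 mitochondrial ones EARS2 was, at -0.24 (adjusted p = 0.0250) and -0.29 (adjusted p = 0.0327). Of the 10 genes upstream of ATF4 and the 8 chaperone genes, edgeR called 0 over the 4 comparisons with and without the block, and 0 had an unadjusted p under 0.05 without it, while PPP1R15A was called with the block and without UM-UC-3 siACAT1-2 replicate 1.

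The knockdown effect was also compared between the cell lines. No member was called, without the block (0% of all genes) or with it (0.104%), and 0 and 3 members had an unadjusted p under 0.05, and DESeq2 called 0. With the block, the smallest p values were those of VLDLR, at -0.75 (SE 0.19, adjusted p = 0.168) for UM-UC-3 minus T24, NUPR1, at 1.61 (SE 0.45, adjusted p = 0.204), and PSPH, at 0.47 (SE 0.18, adjusted p = 0.41). Without the library that stood apart NUPR1 was called, at 1.86 (adjusted p = 0.0216).

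The siRNAs differed from each other in these genes. With the block, siACAT1-2 was lower than siACAT1-1 over both lines for 18 members and higher for ATF5, which makes 19 of 38 called where 20.6% of all genes were. Without the block it was 0 of 38 with 2.56% of all genes, 4 members had an unadjusted p under 0.05, and DESeq2 called 1. The median difference of the members, siACAT1-2 minus siACAT1-1, was -0.34 on the log2 scale and that of all genes was 0.017, both with the block. Since this comparison also rests on UM-UC-3 siACAT1-2 replicate 1, the same fit was made without that library. There 12 members were called (14.6% of all genes), with a median of -0.20.

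SLC7A11 and PSAT1 had the smallest p values in the siRNA comparison with the block. SLC7A11 differed by -1.50 (SE 0.24, adjusted p = 2.29e-04), and by -1.17 (adjusted p = 2.31e-04) without the library. PSAT1 differed by -1.07 (SE 0.16, adjusted p = 1.27e-04), and by -0.88 (adjusted p = 2.96e-04) without the library. At every number of both lines, PSAT1 and SLC7A11 were lower with siACAT1-2 than with siACAT1-1. Of the regulators, ATF3 differed by -1.43 (SE 0.30, adjusted p = 0.00195), NUPR1 by -1.09 (SE 0.30, adjusted p = 0.0139) and CEBPG by -0.61 (SE 0.14, adjusted p = 0.00432), and ATF5 was higher with siACAT1-2, by 0.44 (SE 0.091, adjusted p = 0.0018). These 4 stayed called without the library, at -1.07, -0.83, -0.42 and 0.39.

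Among the enzymes and transporters, MTHFD2 differed by -0.54 (SE 0.11, adjusted p = 0.00217), ASNS by -0.57 (SE 0.17, adjusted p = 0.025), GPT2 by -0.60 (SE 0.15, adjusted p = 0.00699) and SLC3A2 by -0.68 (SE 0.16, adjusted p = 0.00395). Without the library they stayed called and were smaller, at -0.40 (adjusted p = 0.00906), -0.32 (adjusted p = 0.0312), -0.39 (adjusted p = 0.0156) and -0.47 (adjusted p = 0.00835). STC2 differed by -0.78 (SE 0.22, adjusted p = 0.0142) and missed the threshold without the library, at -0.51 (adjusted p = 0.0506). Of the 12 synthetases, 8 were lower with siACAT1-2, namely SARS, LARS, GARS, CARS, EPRS, NARS, TARS and YARS, with differences from -0.41 in SARS to -0.24 in EPRS. Without the library SARS and LARS were still called, at -0.27 (adjusted p = 0.0188) and -0.28 (adjusted p = 0.0294), and the other 6 were not, at -0.23 in GARS (adjusted p = 0.103) to -0.18 in EPRS (adjusted p = 0.118).

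Synthetase genes outside the members went in both directions between the siRNAs. With siACAT1-2, VARS, the valine enzyme, was lower, at -0.62 (SE 0.079, adjusted p = 2.69e-05), and HARS, the histidine enzyme, was higher, at 0.43 (SE 0.071, adjusted p = 3.11e-04), both with the block, and VARS was also called without it (adjusted p = 0.00477). Of the 17 mitochondrial synthetases, 7 were called with the block, 2 higher and 5 lower (3, all lower, without UM-UC-3 siACAT1-2 replicate 1), and of the 18 further ATF4 targets 6 were lower, including ERO1A, an oxidase of the endoplasmic reticulum, at -0.56 (SE 0.087, adjusted p = 1.66e-04). The mitochondrial EARS2 and ERO1A were also called without the block (adjusted p = 0.0332 and 0.0128).

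The siNC libraries allow these genes to be compared between the lines. Without the block, 6 of 38 members differed, where 44.3% of all genes did. LARS and ATF5 were higher in UM-UC-3 cells, and STC2, PSPH, SLC7A5 and PSAT1 were higher in T24 cells. LARS was at 62, 52.3 and 64.9 RPKM in UM-UC-3 and 19.9, 31.7 and 25.1 RPKM for T24, and its libraries did not overlap, and the log2 difference, UM-UC-3 minus T24, was 1.28 (SE 0.24, adjusted p = 3.54e-04). STC2 was at 8.51, 3.51 and 6.02 against 11.8, 97.3 and 37.1 RPKM, also without overlap, a log2 difference of -2.93 (SE 0.66, adjusted p = 0.00174). In T24 cells the siNC libraries of STC2 thus ran from 11.8 to 97.3 RPKM. The fitted fold between its replicate numbers over all 3 T24 groups was 3.43.

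The groups also did not overlap for ATF5, PSPH and SLC7A5. The share of all genes whose siNC libraries did not overlap was not counted, so overlap is given here as a description only. ATF5 was at 22.2 ± 3.83 RPKM in UM-UC-3 and 15.1 ± 2.3 for T24, a log2 difference of 0.59 (SE 0.21, adjusted p = 0.028). PSPH was at 3.73 ± 0.331 and 9.51 ± 4.3 RPKM, a log2 difference of -1.28 (SE 0.37, adjusted p = 0.0101). SLC7A5 was at 12.2 ± 2.6 and 38.7 ± 18.6 RPKM, a log2 difference of -1.61 (SE 0.51, adjusted p = 0.0169). For PSAT1, at 25.3 ± 8.82 and 60.5 ± 27.9 RPKM and a log2 difference of -1.20 (SE 0.43, adjusted p = 0.0339), the libraries overlapped. All these are mean ± SD of n = 3. Without T24 siNC replicate 3, only 3 members were called, and ATF5, PSAT1 and SLC7A5 were the ones lost.

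With the block, 26 of 38 members differed between the lines, 14 of them higher in UM-UC-3 cells, and so did 61.7% of all genes. The block is set within each line, so this test leaves the spread between the numbers out of its error although the lines share no culture. DDIT3 at 1.89 (SE 0.37, adjusted p = 1.78e-04) and NUPR1 at 3.16 (SE 0.35, adjusted p = 1.35e-07) with the block were not called without it (0.218 and 0.0638 as adjusted p), and their siNC values ranged from 13.8 to 201 and from 0.113 to 2.93 RPKM in T24 cells alone. MARS at 1.22 (SE 0.18, adjusted p = 4.23e-06) and WARS at -0.93 (SE 0.13, adjusted p = 3.40e-06) were in the same position. ATF4, the gene of the factor itself, was at 247 ± 98.7 RPKM in UM-UC-3 and 242 ± 122 for T24, a log2 difference of 0.092 (SE 0.47, adjusted p = 0.891), and was not called in either fit.

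The other members called with the block are given by role. None of them was called without it, and for each the siNC libraries of the lines overlapped. Of the regulators, CEBPG was at 1.15 (SE 0.20, adjusted p = 4.29e-05) and SESN2 at 1.31 (SE 0.44, adjusted p = 0.0133). The secreted GDF15 was lower in UM-UC-3 cells, at -1.37 (SE 0.51, adjusted p = 0.0251). Without the block its value ran from -4.10 to 1.63 when 1 library was left out. Of the metabolic genes, MTHFD2 was at 0.64 (SE 0.16, adjusted p = 0.00153), PHGDH at 0.41 (SE 0.15, adjusted p = 0.0226) and VLDLR at 0.64 (SE 0.16, adjusted p = 0.00154), all higher in UM-UC-3 cells. SHMT2 at -0.47 (SE 0.12, adjusted p = 0.00216), ALDH1L2 at -0.99 (SE 0.39, adjusted p = 0.0356), SLC7A11 at -1.55 (SE 0.34, adjusted p = 4.49e-04) and SLC3A2 at -0.72 (SE 0.22, adjusted p = 0.00719) were lower. Of the synthetases, AARS, YARS, CARS and EPRS were higher by 0.54, 0.68, 0.44 and 0.32, and GARS and IARS were lower, at -0.48 and -0.47, on the log2 scale. AARS and CARS also changed direction without the block when 1 library was left out (-5.52e-04 to 1.01 and -0.012 to 0.71).

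**Figure D5:**
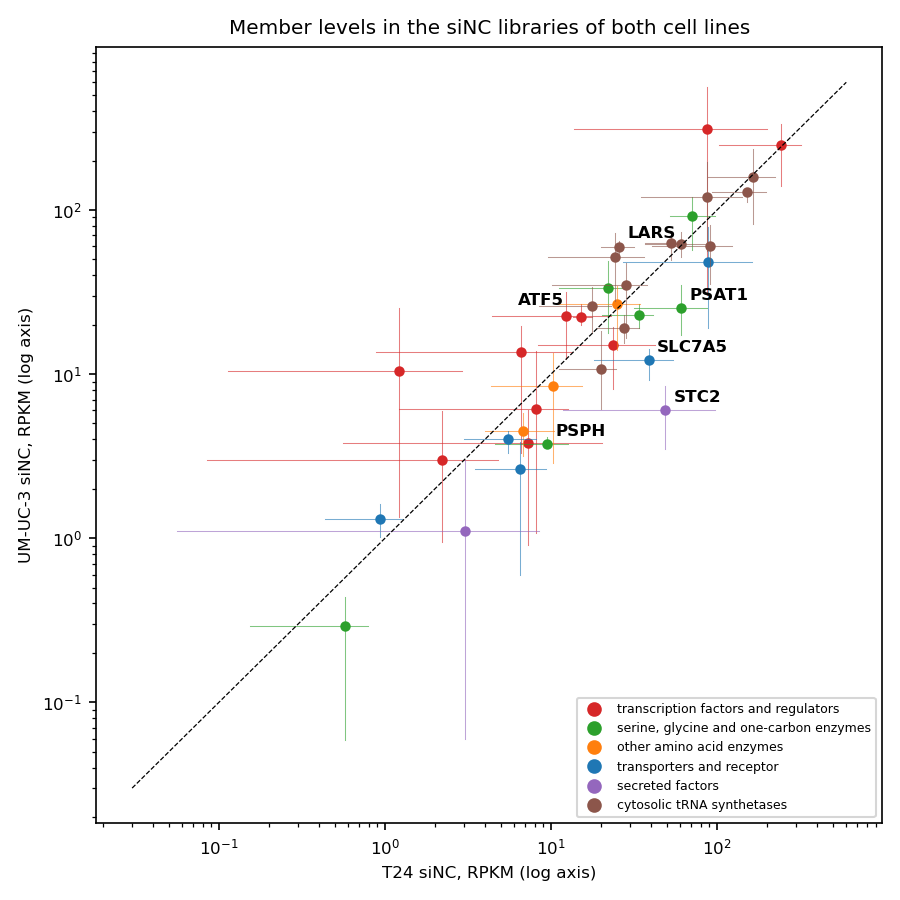
Mean RPKM of the 38 tested genes in the siNC libraries of T24 cells (horizontal, log axis) and UM-UC-3 cells (vertical, log axis), coloured by role, with thin lines from the lowest to the highest of the 3 libraries and a dashed line of equal level. The 6 named genes are those called without the block, with LARS and ATF5 above the dashed line and STC2, PSPH, SLC7A5 and PSAT1 below it.

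ATF4 itself lies on chromosome 22 (39519695 to 39522685, plus strand, GRCh38), PHGDH on chromosome 1 (119659798 to 119744215, plus strand) and VLDLR on chromosome 9 (2621834 to 2660053, plus strand). Some members overlap genes on the other strand in the annotation of the count table. Of the counted length, 33.2% in MTHFD2, 28.0% in DDIT3, 21.2% in ATF5, 12.4% in MARS, 11.8% in CEBPB and 10.6% in WARS is shared with an antisense gene, and DDIT3 and MARS overlap each other. The kit keeps the strand, but the strand setting of the counting is not given in the sources used here, so reads of such partners may not be told apart. For SLC7A5, a pseudogene copy, SLC7A5P2, took up to 8.16% of the counts of the gene in a library, and other pseudogene copies of members took at most 1.32%.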

How the data were processed

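Stranded libraries with molecular identifiers were sequenced on an Illumina NovaSeq instrument. Per the submitters' processing notes and the paper's methods, the authors trimmed with Trimmomatic 0.36, aligned to GRCh38 by STAR 2.5.3 and counted reads on exons with featureCounts (Subread 1.5.1). The deposited counts are not normalized. The authors calculated the deposited RPKM values from these counts (checked, largest relative difference 6.35e-07). The annotation release, the strand setting, the handling of multimapping reads and the collapse of identifiers are not given in the sources used here.

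Counts of all 18 libraries were fitted in R 4.3.3 with edgeR 4.0.16 (TMM, filterByExpr by group with a minimum count of 10, quasi-likelihood test) with 6 group coefficients. The p values were adjusted by Benjamini-Hochberg over all 20144 genes tested, and genes under 0.05 were called. The second model added the replicate number within each cell line as a block. Alternatives were DESeq2 1.42.0, RLE size factors, no filter, each cell line alone and leaving out each library. The script was tested on simulated counts. Depth, 25163490 to 34417230 reads per library, limits genes with few reads. No 2 replicates of a group were alike within counting error (chi-square divided by its degrees of freedom was 11.8 to 174 over 18 pairs). The labels call replicates biological.

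Pairing was taken from the data: over genes, which are no independent replicates, the departures of libraries from their group mean correlated in every pair of the same number (UM-UC-3 r from 0.115 to 0.576, T24 from 0.356 to 0.686), while other pairs had r from -0.545 to 0.269 and from -0.567 to 0.210.

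The 39 genes and the other lists were chosen with earlier results of these data known. Members called with or without the block, or among the 3 smallest p values of a comparison, were given with statistics, and genes of other lists were named when called or as the 2 with the smallest p of their list. CXCL10 of the interferon list was not analysed here. DELE1 was matched by its older symbol. RefSeq windows were matched by symbol, through the numbered current symbol for synthetases.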

Additional observations from a re-analysis of the deposited data

How the results depend on the processing

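With the replicate block, which pairs libraries by number, the members called went from 0 to 3, 3, 7 and 7 for siACAT1-1 and siACAT1-2 in UM-UC-3 and then T24 cells, to 8 for the mean of the 4, to 19 for the difference between the siRNAs and from 6 to 26 between the siNC libraries of the lines, with 0 in both fits for the difference of the knockdown effect. With the block and without UM-UC-3 siACAT1-2 replicate 1, chosen after seeing the data, these were 4, 0, 13, 9, 9, 12 and 29, and 1 for the difference of the knockdown effect. Shares of all genes in that fit were 3.15%, 0.550%, 13.5%, 8.10%, 11.4%, 14.6% and 60.4%, and 0.236%. With the block and each line alone, also chosen after seeing the data, 3, 5, 10 and 8 members were called, beside 1116, 494, 2211 and 1197 of all genes. Without the filter on low counts 2, 2, 2, 4, 3, 9 and 20 members, and 2, were called, beside 167, 58, 463, 180, 383, 884 and 8957 of all genes, and 29. The cause was not tested. DESeq2 called 1 member for the difference between the siRNAs and changed no other of these counts by more than 1.5 times, and RLE size factors and separate fits of the lines without the block changed none by more than that. Leaving out 1 library without the block gave 0 in the 4 comparisons, their mean and the difference of the knockdown effect, 0 to 1 between the siRNAs (1 without T24 siACAT1-2 replicate 2), 3 to 7 between the lines (3 without T24 siNC replicate 3), and 29 to 35 and 36 to 38 for the replicate number in UM-UC-3 and T24 cells. It turned the direction of NUPR1 with siACAT1-1 in T24 cells (-3.40 to 0.39), in the difference of the knockdown effect (-0.17 to 3.29) and between the siRNAs (-2.09 to 0.0054), and between the lines that of AARS (-5.52e-04 to 1.01), CARS (-0.012 to 0.71) and GDF15 (-4.10 to 1.63). Genes with few reads, such as GDF15, NUPR1 and CHAC1 in their low libraries, are limited by depth.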

Other observations

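Genes of other stress programmes were listed beside the members, and over the 4 comparisons 12.4% of all genes were called with the block. With the replicate block, 7 of 10 tested interferon genes were higher with siACAT1 over the 4 comparisons and 0 were lower, with 0, 5, 6 and 4 called higher for siACAT1-1 and siACAT1-2 in UM-UC-3 and then T24 cells, and without it IFIT3 and GBP2 were called, at 0.76 (SE 0.12, adjusted p = 0.0182) and 1.22 (SE 0.21, adjusted p = 0.0218) on the log2 scale. Of 7 NRF2 targets, which encode antioxidant enzymes, 4 were higher with the block (HMOX1, NQO1, SRXN1 and OSGIN1, from 0.33 to 0.87) and 0 were called without it. In T24 cells 4 were called higher with siACAT1-1 (median 0.67) and 0 with siACAT1-2 (median -0.21), where 13.9% and 8.48% of all genes were called. The siRNAs were not tested against each other within T24 cells. In UM-UC-3 cells 1 and 0 were called, with medians of 0.44 and 0.30. Over both lines, 5 of the 7 were called lower with siACAT1-2 than with siACAT1-1, and 4 without UM-UC-3 siACAT1-2 replicate 1. Without that library, 2 and 1 were called higher in UM-UC-3 cells, HMOX1 being the 1 with siACAT1-2, and SRXN1 was not called over the 4 comparisons. By replicate number, where 24.6% and 43.9% of all genes were called, 0 of the 7 NRF2 targets were called for UM-UC-3 and 5 for T24. There HMOX1 and OSGIN1 were highest in replicate 2, like most members (OSGIN1 -0.45, 1.15 and -0.70 for replicates 1, 2 and 3, adjusted p = 5.21e-06), and NQO1, GCLM and SRXN1 were lowest in it. NQO1 deviated by 0.43, -0.85 and 0.42 for replicates 1, 2 and 3 (adjusted p = 6.87e-06).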
